A study of Mus musculus with 8 samples.

Results

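The immediate early response genes Fos, Fosb, Egr1, Jun, Junb, Atf3, Ier2, Ier3, Zfp36 and Dusp1 were followed in the distal ileum of mice lacking Cftr and of their wild-type littermates. The set is a list of 10 gene symbols chosen by name, out of 41128 symbols in the deposited table, and each of the 10 has a row. Whole-tissue sections of small intestine taken less than 6 cm from the ileocecal valve were sequenced as polyadenylated RNA, with 1 library per mouse. There were 3 untreated Cftr N/N mice (WT) and 3 untreated mice homozygous for the null allele Cftrtm1Cam (KO), in littermate couples of which couples 1 and 3 were labelled female and couple 2 male. A further couple, labelled female, received 0.3 g/L ciprofloxacin and 0.5 g/L metronidazole in its drinking water, so each genotype has 1 library with antibiotics (ABX) and no replicate there. All 8 mice were congenic FVB, ate a low-fibre diet and had been taken off an osmotic laxative more than 4 days before sampling. Per the labels' protocols, a couple was sampled within a 20 min window that fell between 12 and 14 h. The null allele is present in all cells of the animal, so the tissue holds epithelium, muscle and immune cells that all lack the intact gene.

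Immediate early genes are switched on within minutes of a stimulus without new protein synthesis, by transcription factors that are already bound or ready, such as serum response factor and CREB. Their short-lived mRNAs are then removed quickly, so that the level in a tissue reflects the recent past. Fos, Fosb, Jun, Junb and Atf3 encode basic leucine zipper proteins that pair into AP-1 and related dimers, Egr1 encodes a zinc finger transcription factor, Zfp36 encodes tristetraprolin, which speeds the decay of AU-rich mRNAs, and Dusp1 encodes a phosphatase that switches MAP kinases off. In intestine they are known to respond to growth factors, luminal bacteria and injury, and also to the handling of tissue.

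The stretches upstream of the start site are shown for the 5 members whose annotated promoter holds the letters TGACG, the core of the cAMP response element bound by CREB and ATF proteins. Among the 5 are Fos, Atf3, Fosb and Dusp1, the members with the largest differences between littermates, and also Junb, which was nearly level between them. Egr1, 2.93-fold higher in KO of couple 1, had no promoter entry to search. A link between the motif and these differences was not tested. Sequences are from RefSeq on GRCm38.p6, written 5′ to 3′ on the gene's own strand and ending at the base before the start site except for Dusp1, with TGACG or its reverse complement in capitals. The Atf3 and Dusp1 stretches each belong to a start site inside the annotated gene, and the Dusp1 stretch ends 48 bases before its start site. The last 6 bases shown for Fosb and the last 7 for Atf3 lie in an annotated exon, and the other bases shown lie in none. The Atf3 match lies within those last 7 bases.
Fos, chr12:85473640-85473889, plus strand: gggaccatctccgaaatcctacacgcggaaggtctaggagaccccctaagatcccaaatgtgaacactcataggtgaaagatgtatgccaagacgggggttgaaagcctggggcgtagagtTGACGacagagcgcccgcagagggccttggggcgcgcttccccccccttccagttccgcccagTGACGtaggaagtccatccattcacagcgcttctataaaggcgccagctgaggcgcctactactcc
Fosb, chr7:19310046-19310295, minus strand: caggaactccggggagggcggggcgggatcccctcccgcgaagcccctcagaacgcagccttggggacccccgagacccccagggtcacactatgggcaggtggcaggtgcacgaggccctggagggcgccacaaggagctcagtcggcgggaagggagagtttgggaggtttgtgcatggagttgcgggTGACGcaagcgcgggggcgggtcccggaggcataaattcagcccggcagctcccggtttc
Junb, chr8:84978749-84978868, minus strand: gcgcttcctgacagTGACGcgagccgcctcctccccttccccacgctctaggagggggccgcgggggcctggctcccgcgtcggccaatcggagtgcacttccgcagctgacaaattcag
Atf3, chr1:191183334-191183583, minus strand: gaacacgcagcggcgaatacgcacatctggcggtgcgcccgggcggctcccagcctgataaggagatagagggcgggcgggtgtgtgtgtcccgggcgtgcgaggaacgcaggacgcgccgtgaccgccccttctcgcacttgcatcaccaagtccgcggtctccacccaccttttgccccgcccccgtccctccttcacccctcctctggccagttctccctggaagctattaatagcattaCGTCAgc
Dusp1, chr17:26508520-26508722, minus strand: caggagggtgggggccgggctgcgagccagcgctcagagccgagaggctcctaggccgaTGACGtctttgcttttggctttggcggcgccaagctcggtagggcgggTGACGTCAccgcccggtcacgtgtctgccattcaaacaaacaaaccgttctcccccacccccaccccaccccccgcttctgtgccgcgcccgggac

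Of the 10 members, 8 had a promoter in the RefSeq table and Egr1 and Ier2 had no entry. Searched on both strands in the 250 bases before the start site, TGACG occurred in 5 of these 8, against 17.77% of 32851 promoters. In Fos it lay at -129 to -125 and at -66 to -62, in Fosb at -60 to -56, in Junb at -106 to -102 and in Atf3 at -7 to -3. The full palindrome TGACGTCA, which contains TGACG on each strand, occurred in Dusp1 alone, at -143 to -136, against 1.55% of promoters. The CArG box, the motif of serum response factor, occurred within these 250 bases in Zfp36 alone, at -58 to -49, against 1.47% of promoters. Bases further upstream were not searched, so a member without a match here may hold one there. A match of letters is a description of the sequence and does not show binding.

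The deposited values are not named by unit and were read as RPKM, which divides reads by the gene's length and the library's size. Their library sums were 346794 to 397082, and the read depth is unknown. Cftr, the targeted gene, had values of 9.94 to 12.4 in untreated WT and 2.65 to 3.74 in untreated KO, and 13.8 and 4.94 in the antibiotic WT and KO libraries. Epithelial markers of the ileum such as Vil1 and Fabp6 were present in each library, and the summed level of the 9 epithelial markers was 21048 to 28672 in untreated WT and 10761 to 18172 in untreated KO. Most of that sum is Fabp6, Fabp2 and Apoa1, which were lower in KO in each untreated couple, while Slc10a2 was higher in KO in each of them, and Krt8, Krt20 and Cdh1 were higher in KO of couple 1 and lower in KO of couple 2. Markers of T and NK cells summed to 23.5 to 30.5 in untreated WT and 60.1 to 88.7 in untreated KO. In whole tissue, fewer cells of a type and less RNA per cell cannot be told apart. The values fall into 3 separately normalized sets, with couples 1 and 2 in one set, couple 3 in another and the antibiotic couple in the last, so levels set across couples 1 or 2, couple 3 and the antibiotic couple cross a normalization. Each set holds both genotypes, and the antibiotic set cannot be told apart from the treatment and from that litter.

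Fos was higher in KO than in WT in each untreated couple and 9.91-fold lower in KO than in WT in the antibiotic couple. Atf3, Egr1 and Dusp1 were high in the KO of couple 1 and differed less between littermates in couples 2 and 3. With antibiotics Atf3 was 4.77-fold and Fosb 15.0-fold lower in KO than in WT, and Fosb, the least abundant member, was also lower in KO in couple 2. Jun, Junb, Ier2, Ier3 and Zfp36 differed less between littermates. No member passed the test for a genotype difference in untreated mice, for an effect of antibiotics, or for a change of the genotype difference with antibiotics.

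**Figure D1:**
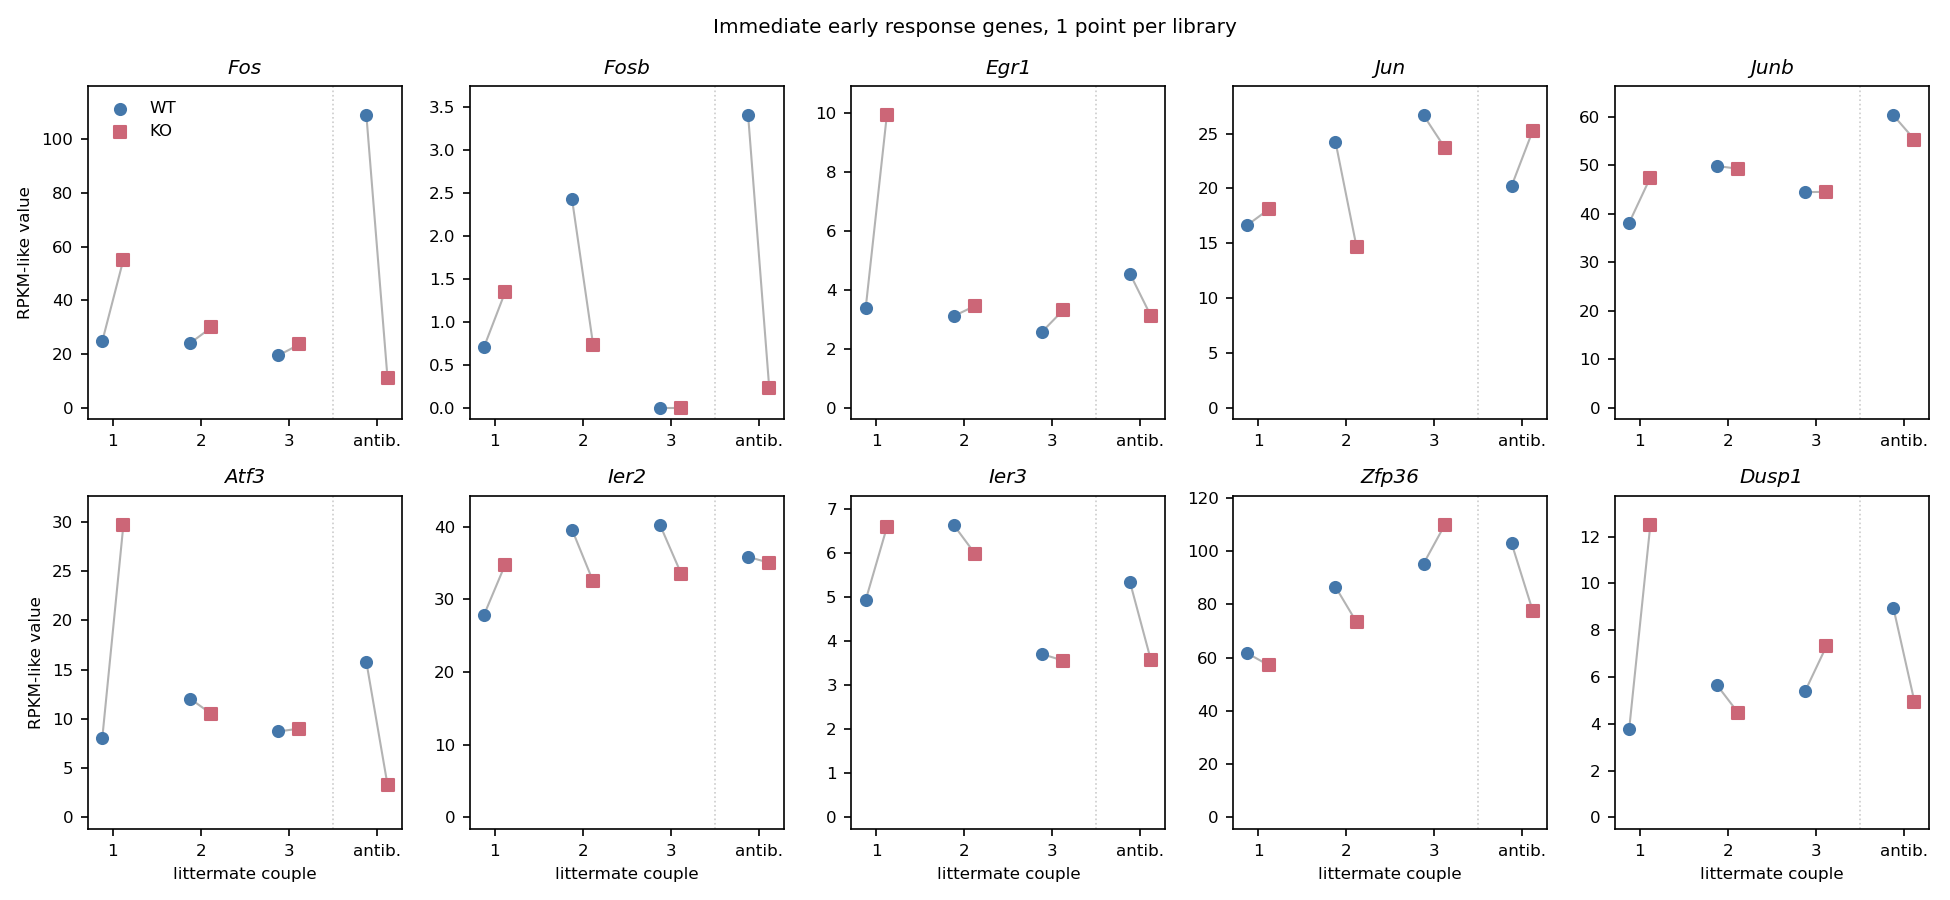
Each panel plots the deposited RPKM-like value (y axis, linear) of 1 member in the 8 libraries, with WT as blue circles and KO as red squares, littermates joined by a grey line and the antibiotic couple to the right of the dotted line. Fos reaches 108.9 in the WT antibiotic library and falls to 11.0 in its KO littermate, and Atf3, Egr1 and Dusp1 stand highest in the KO of couple 1.

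Fos, the AP-1 subunit most often used as a mark of recent stimulation, lies on chromosome 12 at 85473890 to 85477273 (GRCm38, plus strand). Its value was 24.7 in WT and 55.1 in KO of couple 1, 24.0 and 29.9 in couple 2, and 19.4 and 23.6 in couple 3. With antibiotics its value was 108.9 in the WT library and 11.0 in the KO library. The lowest untreated KO value lay below the highest WT value, so the untreated groups overlapped, while the antibiotic couple held both the highest and the lowest of the 8 values. The mean of the 3 untreated WT libraries was 22.7 ± 2.87 and that of KO was 36.2 ± 16.7 (SD, n = 3).

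Fosb, a close relative of Fos on chromosome 7 (19302696 to 19310051, minus strand), was expressed at the lowest level of the set. Its values were 0.704 in WT and 1.34 in KO of couple 1, 2.43 and 0.729 in couple 2, listed at 0 in both libraries of couple 3, and 3.41 and 0.227 in the antibiotic couple. The direction of the littermate difference changed between couples 1 and 2. Its untreated libraries reached a value of 1 in fewer than 3 libraries, the minimum for testing, so Fosb was tested only in the comparisons over 8 libraries.

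Jun, the main partner of Fos in AP-1 (chromosome 4, 95049034 to 95052222, minus strand), did not follow Fos. It had values of 16.7 in WT and 18.1 in KO of couple 1, 24.3 and 14.6 in couple 2, 26.7 and 23.7 in couple 3, and 20.2 and 25.3 with antibiotics. KO was above WT in couple 1 and in the antibiotic couple and below WT in couples 2 and 3. Junb, an AP-1 subunit that can restrain Jun (chromosome 8, 84974484 to 84978718, minus strand), was nearly level between littermates. Its values were 38.1 and 47.4 in WT and KO of couple 1, 49.8 and 49.2 in couple 2, 44.4 and 44.5 in couple 3, and 60.3 and 55.2 with antibiotics. Both antibiotic libraries lay above all 6 untreated libraries for Junb.

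Atf3, a stress-induced member of the ATF family (chromosome 1, 191170296 to 191218039, minus strand), had the largest littermate difference of the 10 in couple 1. Its values were 8.01 in WT and 29.7 in KO there, 12.0 and 10.5 in couple 2, and 8.72 and 9.01 in couple 3. With antibiotics it was 15.8 in WT and 3.31 in KO, the lowest of its 8 values. Without KO of couple 1, its untreated values spanned only 8.01 to 12.0 across both genotypes. Egr1, the zinc finger factor (chromosome 18, 34859823 to 34864984, plus strand), had values of 3.38 in WT and 9.92 in KO of couple 1. It was 3.10 and 3.45 in couple 2, 2.56 and 3.30 in couple 3, and 4.55 and 3.10 with antibiotics. Egr1 was thus higher in KO in all 3 untreated couples, by a wide margin in couple 1 only, and lower in KO in the antibiotic couple.

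Dusp1, the MAP kinase phosphatase (chromosome 17, 26505590 to 26562128, minus strand), was 3.77 in WT and 12.5 in KO of couple 1. It was 5.64 and 4.46 in couple 2, 5.41 and 7.32 in couple 3, and 8.97 and 4.95 with antibiotics. The KO of couple 1 had the highest value and its WT littermate the lowest. Zfp36, the mRNA decay factor (chromosome 7, 28376784 to 28380253, minus strand), had the highest level of the set in each library but the WT antibiotic one, where Fos was higher. Its values were 61.6 and 57.2 in WT and KO of couple 1, 86.6 and 73.3 in couple 2, 95.3 and 109.8 in couple 3, and 103.0 and 77.6 with antibiotics. Zfp36 was lowest in both mice of couple 1, where Atf3, Egr1 and Dusp1 were highest in KO.

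Ier2, which encodes a nuclear protein of the immediate early class (chromosome 8, 84661331 to 84662852, minus strand), was 27.9 and 34.8 in WT and KO of couple 1. It was 39.6 and 32.5 in couple 2, 40.2 and 33.5 in couple 3, and 35.9 and 35.0 with antibiotics. Ier3, a stress-inducible gene linked to cell survival (chromosome 17, 35821684 to 35822923, plus strand), was 4.93 and 6.58 in couple 1 and 6.63 and 5.99 in couple 2. It was 3.71 and 3.56 in couple 3 and 5.35 and 3.56 with antibiotics. For both genes KO exceeded WT in couple 1 and was below WT in the other 3 couples.

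On this length-scaled unit the untreated WT means placed Zfp36 highest at 81.2 ± 17.5 (SD, n = 3). Junb at 44.1 ± 5.85 and Ier2 at 35.9 ± 6.97 came next with overlapping values, and then Fos at 22.7 ± 2.87 and Jun at 22.5 ± 5.23, whose values also overlapped. Atf3 stood at 9.59 ± 2.15, above Ier3 at 5.09 ± 1.47 and Dusp1 at 4.94 ± 1.02, which overlapped each other. Egr1 was below all of these at 3.01 ± 0.416, with Fosb lower still in mean. In untreated KO, Zfp36 was again highest at 80.1 ± 27.0 and Junb next at 47.0 ± 2.40. Fos at 36.2 ± 16.7 now overlapped both Junb and Ier2 at 33.6 ± 1.15. Jun at 18.8 ± 4.59 and Atf3 at 16.4 ± 11.5 overlapped, as did Dusp1 at 8.09 ± 4.07, Egr1 at 5.55 ± 3.78 and Ier3 at 5.38 ± 1.60.

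The first comparison asked whether loss of Cftr changed these genes in untreated mice. Of the 9 members tested with limma on log2(value + 1), 0 passed an adjusted p of 0.05 and 0 had an unadjusted p under 0.05. Over all 11717 genes tested, 2.16% were called, 1.15% higher and 1.01% lower in KO. The log2 difference, KO minus WT, was 0.57 for Fos (SE 0.305, 95% interval -0.14 to 1.28, adjusted p = 0.421), with KO higher in 3 of 3 couples. Egr1 differed by 0.57 (SE 0.352, -0.25 to 1.39, adjusted p = 0.49), also with KO higher in 3 of 3 couples. Atf3 differed by 0.54 (-0.41 to 1.50, adjusted p = 0.58) and Dusp1 by 0.53 (-0.22 to 1.28, adjusted p = 0.48), each with KO higher in 2 of 3 couples. The other members differed by -0.25 for Jun, -0.07 for Ier2, -0.05 for Zfp36, 0.06 for Ier3 and 0.10 for Junb, with adjusted p of 0.685 to 0.959. The median over the 9 members was 0.10, beside -0.01 over all genes tested. Intervals of this width do not show that the genotypes were alike.

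The larger untreated differences shrank when couple 1 was left out. Without its 2 libraries the estimates were 0.28 for Fos, 0.19 for Egr1, 0.05 for Dusp1 and -0.07 for Atf3. Without its KO library alone they were 0.22, 0.13, 0.20 and 0.04. With the couple as a block, which the shared litter makes a paired fit, the smallest adjusted p was 0.105 for Fos (limma, unadjusted p = 0.0363) and again 0 members were called, beside 8.4% of all genes higher, 9.91% lower and 18.3% in all. Over all alternatives the adjusted p of Fos lay between 0.105 and 0.854. The values of KO and WT did not separate for any of the 9 members tested, where they did for 22.4% of all genes tested.

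Within couple 1, KO exceeded WT for 9 of 10 members, beside 47.5% of all genes, and for 4 of them by at least 2-fold on the log2(value + 1) scale, beside 2.75% of all genes. None was at least 2-fold lower, beside 2.46%. The log2 differences were 1.77 for Atf3, 1.50 for Dusp1, 1.32 for Egr1 and 1.13 for Fos. In the unshifted values these were a 3.70-fold, a 3.31-fold, a 2.93-fold and a 2.24-fold higher level. Of the 11717 genes, 107 had a larger positive difference than Atf3 in that couple, 160 than Dusp1, 205 than Egr1 and 263 than Fos. Zfp36 was the 1 member with a lower value in KO, by -0.11. The median member difference in couple 1 was 0.41, while over all genes it was -0.02.

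In couple 2 the direction turned, with KO above WT for 2 of 10 members, beside 50.3% of all genes: Fos at 0.30 and Egr1 at 0.12. The other 8 were lower in KO, with the largest differences for Fosb at -0.99 and Jun at -0.69. In couple 3 KO was above WT for 6 members, beside 45.8% of all genes, and below for 3, with Fosb listed at 0 in both, and the differences lay between -0.26 for Ier2 and 0.38 for Dusp1. No member changed by 2-fold or more in couple 2 or couple 3 on the log2(value + 1) scale, where 2.7% and 3.73% of all genes were at least that much higher and 2.92% and 2.37% lower. The member medians were -0.21 and 0.02. The couples are single pairs of mice, so no test was made within one.

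**Figure D2:**
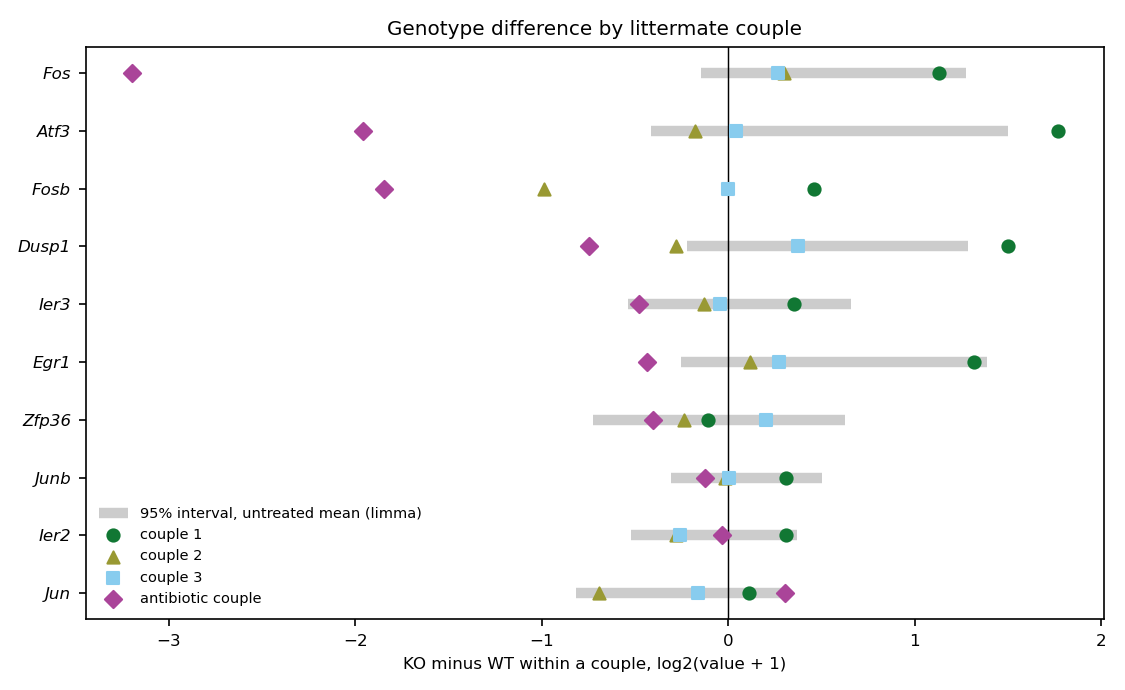
Points give KO minus WT within each couple on the log2(value + 1) scale (x axis) for the 10 members (y axis), and grey bars the 95% interval of the untreated mean difference from limma. The couple 1 points of Atf3, Dusp1, Egr1 and Fos lie between 1.13 and 1.77, couples 2 and 3 lie between -0.28 and 0.38 for these 4 members, couple 2 reaches -0.99 for Fosb and -0.69 for Jun, and the antibiotic couple reaches -3.20 for Fos.

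The spread of the littermate difference separated the members further. The SD of the 3 untreated couple differences was 1.07 for Atf3, 0.901 for Dusp1, 0.654 for Egr1 and 0.488 for Fos, against a median of 0.161 over all genes tested. Only 1.78% of genes tested had a larger SD than Atf3, and 2.51%, 4.46% and 7.65% had a larger one than Dusp1, Egr1 and Fos. Junb at 0.182, Zfp36 at 0.226 and Ier3 at 0.258 were nearer to the median gene. Summed markers of several other cell types were also higher in KO of couple 1. The 5 neutrophil markers summed to 20.5 in KO of couple 1, 0.662 in its WT littermate, 0.655 and 2.25 in WT and KO of couple 2, and were listed at 0 in both libraries of couple 3. That is no measured absence, since couple 3 lists 11912 and 11931 genes above 0 where couples 1 and 2 list 20896. S100a8 alone was 7.86 in KO of couple 1 and 0.08 in its WT littermate. Ly6g, a defining neutrophil marker, was 0.161 in that KO library and 0 in its WT littermate. The 8 smooth muscle markers summed to 587 in WT and 768 in KO of couple 1, 852 and 467 in couple 2, and 888 and 796 in couple 3. The 7 fibroblast markers summed to 139 and 154, 106 and 71.4, and 129 and 83.1. Both sums were thus higher in KO in couple 1 and lower in KO in couple 2, as most members were. In couple 3 both sums were lower in KO, while 6 members were higher. In couple 1 Actg2 went from 68.4 in WT to 157.8 in KO, while Acta2, Myl9 and Dpt were lower in KO and the other markers of both lists higher. The part of these cells in the member values was not tested.

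The second comparison set the antibiotic libraries against the untreated ones. With genotype and antibiotics as terms over all 8 libraries, 0 of 10 members passed an adjusted p of 0.05 in limma and 0 had an unadjusted p under 0.05, beside 0.13% of 11520 genes called higher, 0.026% lower and 0.156% in all. The smallest adjusted p was 0.302 for Junb, which differed by 0.34 (SE 0.166, -0.04 to 0.72) and was higher in 2 of 2 antibiotic libraries than in all 6 untreated ones. The interval was -1.26 to 1.94 for Fos and -1.88 to 0.74 for Atf3, and the WT and KO antibiotic libraries lay far apart for both genes. The member median was 0.14, while the median over all genes was -0.14. Treatment, litter and normalization set cannot be told apart in that shift, which each antibiotic difference includes.

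Set against all 6 untreated libraries, the WT antibiotic library was the highest for Fos, Fosb and Junb, where 8.32% of genes were highest in it. It was below all untreated libraries for 0 members, where 27.6% of genes were. The KO antibiotic library was above all untreated libraries for Junb, beside 7.82% of genes, and below all of them for Fos and Atf3, beside 28.6% of genes.

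Within the antibiotic couple KO was below WT for 9 of 10 members, Jun being the exception at 0.31, while KO was higher for 43.1% of all genes. The Fos difference was -3.20 on the log2(value + 1) scale, from 108.9 in WT to 11.0 in KO. Of the 11520 genes compared in that couple, 1 had a larger negative difference. Atf3 was lower by 4.77-fold and Fosb by 15.0-fold in the deposited values, or by -1.96 and -1.84 on the log2(value + 1) scale, where 11 and 15 genes had larger negative differences. These 3 members were at least 2-fold lower in KO, beside 0.964% of all genes, and none was 2-fold higher, beside 3.29%. Dusp1 stood at -0.74, Ier3 at -0.48, Egr1 at -0.44 and Zfp36 at -0.40, while Junb at -0.12 and Ier2 at -0.03 were close to level. The member median was -0.46, beside -0.04 over all genes.

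The WT antibiotic column is less certain than the rest, because it holds 423 genes with tied, zero or very low values that look faulty. None of the 10 members was among them. Each member's value there was held by no other gene of the column, which is part of the rule for faults. Each value also occurred in the column of the KO littermate, as quantile normalization leaves it. So did 93.5% of the distinct values above 0 in the WT antibiotic column. Neither point shows that a member's value is right. Red blood cell markers were also high in that library, at a sum of 394.5 beside 151.6 in its KO littermate and 115.2 to 265.6 in the untreated libraries. Neutrophil markers summed to 0.38 and 0.432 in the antibiotic WT and KO, so they were near 0 in both. Sums of immune markers went the other way. They were 9.53 in WT and 37.3 in KO for T and NK cells, where each marker was higher in KO. For B and plasma cells they were 112 and 439.9, mostly Igj at 83.0 and 348.0, while Sdc1 was lower in KO. For macrophages and dendritic cells they were 55.2 and 123, mostly Lyz2 at 37.1 and 104.9, while Cd68, Itgax and Cx3cr1 were lower in KO. Smooth muscle markers summed to 508 and 494. That WT sum holds Actg2 at only 1.59, beside 66.6 in KO and 68.4 to 157.8 in the untreated libraries. Actg2 is among the genes whose very low value in the WT antibiotic column looks faulty. The near-level sums therefore cannot be read as equal muscle content. Each of the other smooth muscle markers was lower in KO, with Cnn1 at 36.7 in WT and 20.0 in KO and Lmod1 nearly level. The part of these cell types in the Fos value was not tested.

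The third comparison asked whether the genotype difference changed with antibiotics. The difference of differences, antibiotic minus untreated, was -3.76 for Fos (SE 0.610, 95% interval -5.18 to -2.34, unadjusted p = 0.000334, adjusted p = 0.275, limma with 1 mean per group). It was -2.50 for Atf3 (SE 0.818, -4.41 to -0.60, adjusted p = 0.942), -1.67 for Fosb, -1.28 for Dusp1 and -1.0 for Egr1, and between -0.54 and 0.55 for the other 5. Fos and Atf3 were the 2 members with an unadjusted p under 0.05, as were 483 of all 11520 genes, or 4.19%. Past the adjusted threshold there were 0 members and 0% of all genes. For Fos, 13 of 11520 genes had a smaller p. With the couple as a block the adjusted p was 0.0862 for Fos, 0.267 for Atf3 and 0.29 for Fosb, and over all alternatives that of Fos lay between 0.0541 and 1. The estimate has 1 library per genotype on the antibiotic side, whose spread is assumed to be that of the untreated mice. Fos and Egr1 shared the pattern of KO higher in each untreated couple and lower with antibiotics, as 13.6% of all genes did. Without KO of couple 1, the Egr1 value was -0.56 in place of -1.0, and the Fos value -3.42.

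The genes most like the members were ranked by the Pearson correlation of their log2 values with the mean of the 10 members, each centred, over the 8 libraries and 9729 genes. The first 5 were Hbegf at 0.87, Cish at 0.84, Plcxd2 at 0.84, Pacsin2 at 0.81 and Pmp22 at 0.80. The 8 points share couples and normalization sets, and over the 6 untreated libraries the same correlations were 0.73, 0.67, 0.76, 0.53 and 0.52. Hbegf, which encodes a growth factor that binds the EGF receptor, was 15.3 in the WT and 3.93 in the KO antibiotic library, and 6.79 and 11.4 in WT and KO of couple 1. Pmp22, a membrane protein gene, was 327.0 and 108.4 with antibiotics and 139.6 and 196.8 in couple 1. Cish, a cytokine signalling inhibitor, stayed between 1.37 and 2.58 in all 8 libraries, with its highest value in the WT antibiotic library and its lowest in the KO littermate. Among the members, Fos at 0.91, Atf3 at 0.88 and Dusp1 at 0.82 correlated most with the mean they belong to, and Zfp36 at 0.02 and Jun at -0.20 least.

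**Figure D3:**
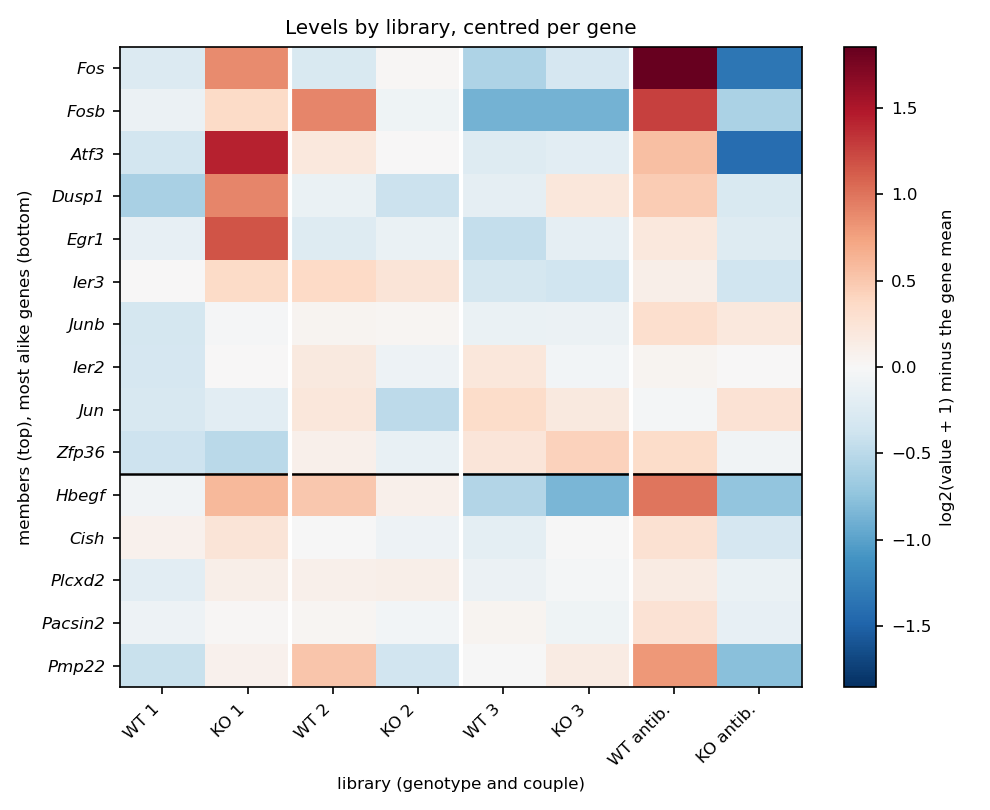
Colours give log2(value + 1) minus the gene's mean over the 8 libraries (columns, couples split by white lines) for the 10 members (above the black line) and the 5 genes most like their mean (below it). The WT antibiotic and couple 1 KO columns are the most red for Fos, Atf3 and Hbegf, and the KO antibiotic column is blue for them, while Jun and Zfp36 do not follow.

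Other genes of the pathway were read from lists, described by counts and medians. The other AP-1 and CREB/ATF factors had 19 of 21 genes tested in untreated mice, of which 4 rose in KO and 0 fell. Their median was 0.30, beside -0.01 over all genes, and 1.15% of all genes rose. Jdp2, an AP-1 repressor, rose by 1.82 (SE 0.326, adjusted p = 0.0379, limma), from values of 1.84, 2.24 and 2.47 in WT to 12.5, 15.1 and 5.49 in KO. Batf2 rose by 1.43 (adjusted p = 0.0397), Atf5 by 1.37 (adjusted p = 0.0397) and Batf, an AP-1 factor of lymphocytes, by 1.12 (adjusted p = 0.0243), each higher in KO in 3 of 3 couples. In the antibiotic couple the same genes differed by 0.21 for Jdp2, -0.30 for Batf2, 0.06 for Atf5 and 0.73 for Batf. With the couple block 6 rose and 2 fell, beside 8.4% and 9.91% of all genes, and with no filter on low values 0 passed. Leaving out any 1 of the 6 libraries left 0 or 1 gene of the list called, and leaving out any couple left 0. The T and NK cell markers, given above, had a higher sum in each KO library than in each untreated WT library. Within the untreated couples, Cd8a in couple 1 (2.75 in WT, 2.40 in KO) and Cd4 in couple 2 (3.95 and 2.98) were lower in KO. The part of these cells in Batf was not tested.

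The feedback inhibitors beyond Zfp36 and Dusp1 had 24 of 25 genes tested, of which 2 rose and 0 fell, with a median of -0.03. Socs3, an inhibitor of cytokine receptor signalling, rose by 1.48 (SE 0.157, adjusted p = 0.00644, limma), from 7.41, 6.96 and 6.49 in WT to 22.4, 23.2 and 18.2 in KO. The groups did not overlap, and the antibiotic couple had 9.12 in WT and 10.8 in KO. Socs1, of the same family, rose by 1.79 (adjusted p = 0.0185), from 2.18, 0.785 and 0.855 in WT to 8.03, 5.38 and 6.59 in KO. Of all genes, 1.15% rose without the block. With the block 5 rose and 2 fell, beside 8.4% and 9.91% of all genes, with no filter 0 passed, without KO of couple 1, WT of couple 3 or KO of couple 3 there was 1, and without any couple 0. The differences within couples 1, 2 and 3 were 1.47, 1.61 and 1.36 for Socs3, beside 1.13, 0.30 and 0.27 for Fos.

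The other immediate early genes had 32 of 40 genes tested, with a median of 0.07. Of these, 0 were higher and 0 lower, beside 1.15% and 1.01% of all genes. The largest differences belonged to Sgk1 and Phlda1. Sgk1, a kinase that regulates epithelial sodium transport, had values of 56.7, 65.5 and 81.9 in WT and 12.6, 21.5 and 38.3 in KO, a log2 difference of -1.57 (adjusted p = 0.0902, and 0.0178 with the couple block). Without KO of couple 3 its adjusted p was 0.0413, and over the other left-out libraries and couples it reached 0.338. With antibiotics it was 171.0 in WT and 166.1 in KO. Phlda1 differed by 1.03 (adjusted p = 0.296), by 0.54 without KO of couple 1 and by 0.67 without both mice of that couple. In couple 1, 6 of the 32 were at least 2-fold higher in KO and 1 lower, beside 2.75% and 2.46% of all genes. The list median there was 0.31. In couple 2 the counts were 1 and 4, beside 2.7% and 2.92% of all genes, with a median of -0.39. In couple 3 they were 1 and 1, beside 3.73% and 2.37%, with a median of -0.04. In the antibiotic couple they were 1 and 3 of 30, beside 3.29% and 0.964%, with a median of -0.16. Picked after their values were seen, Nr4a1 was 2.87 in WT and 14.2 in KO of couple 1, Cyr61 2.49 and 16.0, Ctgf 2.81 and 14.0, and Sik1 2.18 and 7.25. In couple 2 the same genes were 6.19 and 1.74, 3.55 and 2.78, 3.95 and 3.00, and 7.97 and 3.95, with KO below WT for all 4. Phlda1 and Gadd45g, also at least 2-fold higher in KO of couple 1, stayed higher in KO of couple 2. Their values there were 3.10 and 7.42 for Phlda1 and 5.09 and 10.7 for Gadd45g. In couple 3 KO was above WT for Nr4a1, Ctgf, Phlda1 and Gadd45g and below WT for Cyr61 and Sik1.

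**Figure D4:**
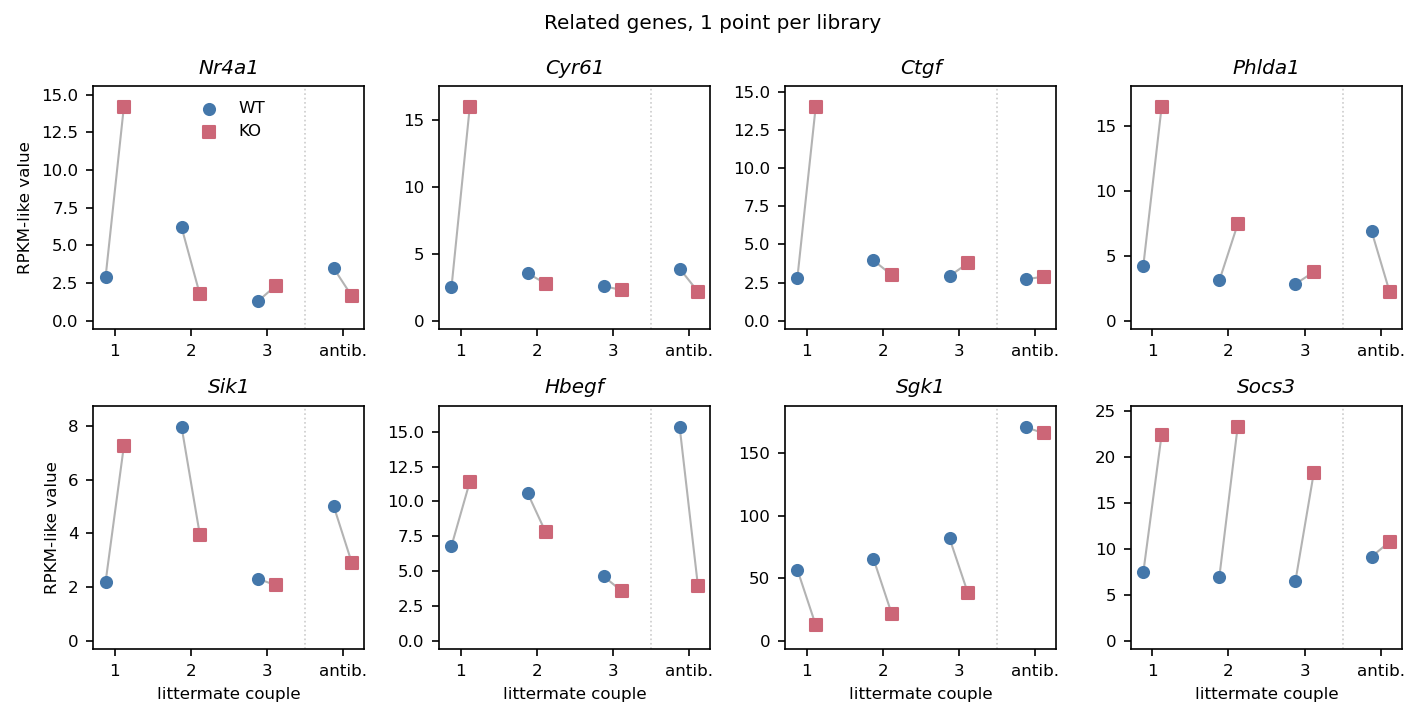
Each panel plots the RPKM-like value (y axis, linear) of 1 related gene in the 8 libraries, with WT as blue circles, KO as red squares and littermates joined. Nr4a1, Cyr61 and Ctgf stand high in KO of couple 1 only, Sgk1 and Socs3 differ between genotypes in each untreated couple, and Hbegf is highest in the WT antibiotic library.

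The upstream kinases and serum response factors had 26 of 29 genes tested, with a median of -0.09. Of these, 0 were higher and 0 lower, beside 1.15% and 1.01% of all genes. The largest differences were -0.58 for Mkl2, a coactivator of serum response factor (adjusted p = 0.35, and 0.0205 with the block), and -0.41 for Mapk3, which encodes the kinase ERK1 (adjusted p = 0.523, and 0.0332 with the block). Without WT of couple 2 the Mkl2 value was -0.36, and without KO of couple 1 the Mapk3 value was -0.21. On the log2(value + 1) scale none of the 26 genes differed by 2-fold or more in couples 1, 2 or 3, nor did any of the 24 compared in the antibiotic couple. Over all genes in these 4 couples, 2.7% to 3.73% were at least 2-fold higher and 0.964% to 2.92% lower, so few would fall in a list this small. Rps6ka1, Rps6ka3 and Rps6ka5, which share 1 value in the WT antibiotic column, were left out of that couple as faulty. The heat shock response had 18 of 19 genes tested, with a median of 0.12. Of these, 0 were higher and 0 lower, beside the same 1.15% and 1.01% of all genes. Hspe1, a mitochondrial chaperonin, differed by 0.65 (adjusted p = 0.22, and 0.03 with the block) and Dnajb4, a cochaperone, by -0.51 (adjusted p = 0.221, and 0.0305 with the block). With the block, which called 18.3% of all genes, the upstream list had 1 higher and 2 lower, the heat shock list 1 and 1, and the other immediate early genes 4 and 3. No gene of any of these lists passed in the comparison with antibiotics or in the difference of differences.

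**Figure D5:**
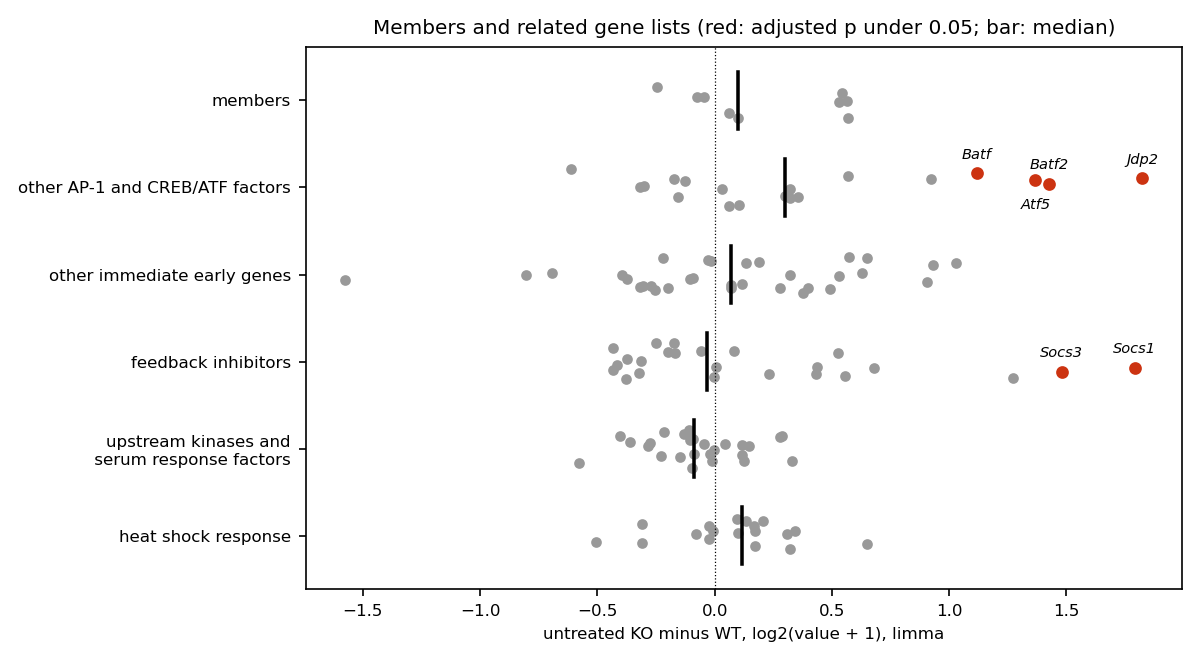
Points give the log2 difference, untreated KO minus WT (x axis, limma on log2(value + 1)), for the 9 members tested and the genes of the 5 lists (y axis), with a bar at each median and red for an adjusted p under 0.05. The 6 red points are Jdp2, Batf2, Atf5, Batf, Socs1 and Socs3, and the members lie between -0.25 and 0.57.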

How the data were processed

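The 8 libraries were 1 per mouse, and samples were grouped by genotype and antibiotics from the labels. Per the submitters' design text, the authors sequenced on an Illumina HiSeq or an Ion Proton and mapped reads with CLC Genomics Workbench 7.5, at default parameters, to GRCm38 with Ensembl release 76. How reads were counted and normalized, and which instrument a library ran on, is not given in the sources used here. Values as deposited name no unit and were treated as RPKM normalized by the authors. Sorted values were identical over the 4 libraries of couples 1 and 2, as quantile normalization leaves them. The slope of log2 value on log2 exon length was -0.545 to -0.363.

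Genes reaching a value of 1 in 3 or more libraries were tested on log2(value + 1), a scale that shrinks changes at low levels, with limma 3.58.1 (trend) in R 4.3.3 and Benjamini-Hochberg adjustment over all genes tested. Fits were 6 untreated libraries without a block, all 8 with genotype and antibiotics, and 1 mean per group for the difference of differences. From the 8-library fits 423 genes were left out: 376 sharing 48 values in the WT antibiotic column, 45 listed at 0 there with at least 1 in KO, and 2 far below, a rule written after these values were seen. Couple numbers mark litters, and littermates deviated together (correlations across 11717 genes 0.622, 0.637 and 0.508). Couple 3 was normalized apart from couples 1 and 2, so shared litter and shared normalization cannot be told apart in these correlations. The scripts were tested on simulated data.

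Members and lists were chosen with earlier results of these data known. Named were all members, list genes past the threshold or otherwise the 2 with the largest absolute difference, and the 5 genes most like the members' mean. Genes of other choice are marked so. Alternatives were pseudocounts of 0.1 and 0.5, no filter, library-median centring, quantile normalization, no trend, the block, the 423 genes kept, and leaving out libraries or couples. Gene positions are from GENCODE annotation of GRCm38.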

Additional observations from a re-analysis of the deposited data

Results flagged for a closer look

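Fos and Egr1 differed in direction between untreated and antibiotic mice: KO was above WT in 3 of 3 untreated couples and below WT in the antibiotic couple. Of all genes, 13.6% had the same pattern. The difference of differences was -3.76 for Fos and -1.0 for Egr1 on the log2(value + 1) scale. Over left-out untreated libraries it lay between -4.02 and -3.42 for Fos and between -1.24 and -0.56 for Egr1. The test of that difference gave an adjusted p of 0.275 for Fos and 0.999 for Egr1 (limma over 11520 genes), so neither passed the threshold.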

How the results depend on the processing

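No member was called under any alternative in the 3 comparisons. Pairing littermates by a replicate block left the untreated count at 0 members, and the smallest adjusted p was that of Fos, at 0.105 untreated and 0.0862 for the difference of differences. The block moved the count of all genes called in untreated mice from 253 to 2145. No filter on low values gave 11 genes, leaving out 1 library 62 to 141 and leaving out a couple 0. Keeping the 423 faulty genes moved the difference of differences from 0 to 74 genes, with an adjusted p of 0.0541 for Fos, which was 0.178 to 0.56 without 1 untreated library. For antibiotics 18 genes became 0 with no filter and 7 to 20 without 1 library.

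The antibiotic difference turned from -0.03 to 0.16 for Egr1 and from -0.18 to 0.01 for Ier3 with centring on the library median, and to 0.18 and 0.02 with quantile normalization; the cause was not tested. Over left-out libraries or couples the untreated difference lay between -0.01 and 0.19 for Junb, -0.11 and 0.29 for Ier3, -0.30 and 0.17 for Zfp36, -0.27 and 0.03 for Ier2, and -0.07 and 0.90 for Atf3. The antibiotic difference lay between -0.04 and 0.08 for Ier2 and -0.11 and 0.21 for Egr1, and the difference of differences of Ier2 between -0.05 and 0.21. Alternatives for the list genes and Cftr were added after the data were seen. Of the 6 list genes called, each lost its call with no filter. Depth is unknown, so no counting error was computed.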
